A study of Arabidopsis thaliana with 4 samples.

Results

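The chloroplast genome of Arabidopsis thaliana carries, beside its photosynthesis genes, genes for its own ribosomal proteins, for an RNA polymerase and for a handful of other proteins. The genes described here are those of the plastid genome whose symbol does not begin with psa, psb, pet, atp, ndh or rbc and whose probe set names a single gene. They were found by the Entrez number of each probe set in the RefSeq annotation, and no filter on signal was used. This gave 26 probe sets for 26 genes, among 22746 probe sets that are not Affymetrix controls and among 77 that name a plastid gene. Of the other plastid probe sets, 43 name a single photosynthesis gene and 8 name both copies of a gene in the inverted repeat.

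Plastid genes are read by 2 kinds of RNA polymerase. The plastid-encoded enzyme is related to that of bacteria and has the core subunits RpoA, RpoB, RpoC1 and RpoC2, with sigma factors supplied by the nucleus. The other kind, a phage-type enzyme, is encoded in the nucleus and transcribes genes such as rpoB and accD. Messages are translated on bacterial-type ribosomes whose proteins come partly from the plastid (rps for the small subunit, rpl for the large subunit) and partly from the nucleus, so leaf mesophyll cells, rich in chloroplasts, draw on both genomes to build this machinery.

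Transcript levels were measured on Affymetrix arrays in leaf mesophyll protoplasts, cells freed of their walls, that were kept in the light for 6 h after transfection with 1 mg of plasmid DNA. The control group received control plasmid DNA, and the KIN10 group a plasmid that expresses KIN10 (AT3G01090), one of the catalytic subunits of SnRK1, a kinase that responds to low energy. Each group had 2 arrays, 1 from each of 2 experiments that the labels call independent, with different plants, operators and array facilities. In each experiment the protoplasts of 36 plants were pooled, and each array took 8 ug of total RNA. Neither the promoter driving KIN10 nor the share of cells transfected is stated in the sources used here. No probe set names KIN10 alone, so the labels could not be checked against its transcript. The mesophyll label was checked with 2 of 6 listed markers, LHCB4.1 (signals of 24361 to 41796) and RCA (17903 to 39110), while of the other leaf cell types only the guard cell gene FMA had a named probe set (146 to 586).

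Signals below are the deposited linear values, and a change is the difference in log2 signal, KIN10 minus control, after each array had been centred on the median of its 22746 probe sets. Centring took 0.090 from every change in experiment 1 and added 0.318 to every change in experiment 2, so a member whose deposited signals are nearly equal in experiment 2 has a positive centred change. The test was limma with the experiment as a block and Benjamini-Hochberg adjustment over all 22746 probe sets, called at an adjusted p under 0.05. Over the whole array 1690 probe sets were called higher and 1702 lower. Centred instead on the hybridization spike-ins, the counts were 1213 and 3782, so higher calls were 49.8% of all calls after median centring and 24.3% on the spike-in scale. Each array took the same 8 ug of total RNA, so neither scale measures cell number or RNA per cell. In these bulk samples, a change in the number of chloroplasts or cells and a change in RNA per cell cannot be told apart.

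The median of the 26 plastid genes lay above control with KIN10 in both experiments, but 3 genes had a negative mean change and few changes passed the test. The RNA polymerase gene rpoC2 and the large-subunit ribosomal protein gene rpl16 rose, none fell, and 24 were not called. These 2 genes make up 7.69% of the members, beside 7.43% of all probe sets called higher and 7.48% called lower, so the share of calls was near that of the array as a whole. The median change of the members was 0.52 in experiment 1, 0.46 in experiment 2 and 0.49 on average, beside 0.03, 0.13 and 0.07 over all probe sets. The spike-ins, RNA added in the laboratory, had medians of 0.45 and 0.31 in experiments 1 and 2, and the mesophyll markers LHCB4.1 and RCA mean changes of 0.63 and 0.55 (neither called). Their part in the members' changes was not tested.

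Directions were uniform in experiment 1 and mixed in experiment 2. In experiment 1 all 26 members had a higher signal with KIN10, with changes from 0.19 (rps15) to 1.05 (rpl16), beside 51.4% of all probe sets. In experiment 2 the same held for 19 members (73.1%), beside 55.9% of all probe sets, and changes ran from -2.83 (rpl33) to 1.38 (rps15). Those 19 were higher in both experiments, as were 36.9% of all probe sets. By the deposited signals, without centring, 26 members were higher with KIN10 in experiment 1 and 16 in experiment 2.

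**Figure D1:**
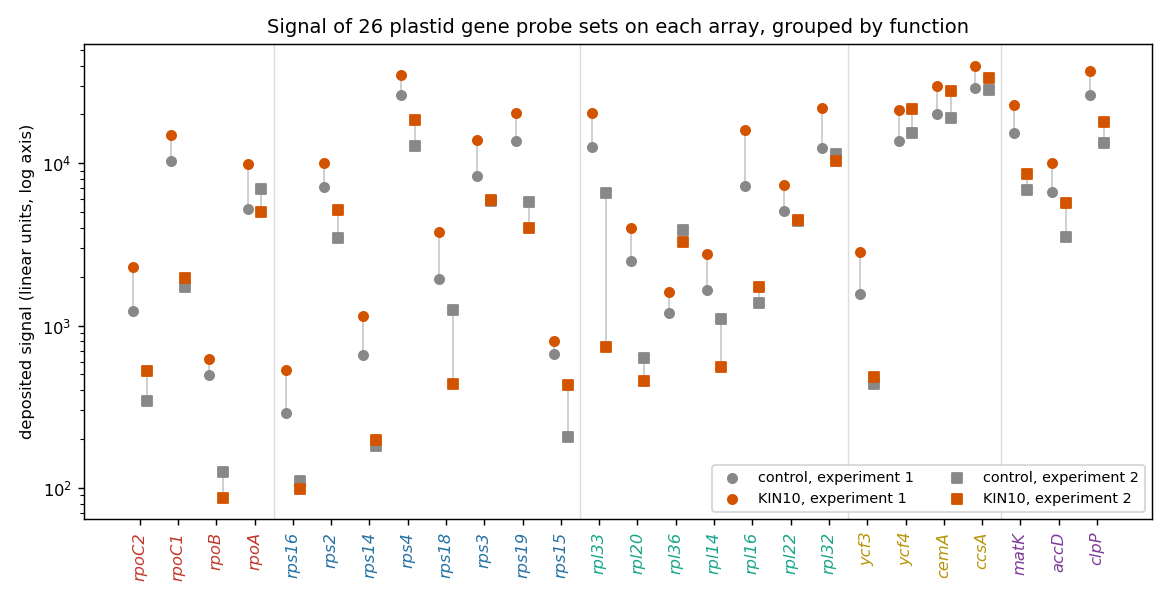
Deposited signal (linear units on a log axis) of each of the 26 probe sets on the 4 arrays; grey marks control and orange KIN10, circles experiment 1 and squares experiment 2, and a line joins the arrays of an experiment. Every orange circle lies above its grey circle, whereas in experiment 2 the order differs between genes and rpl33 falls from 6524 to 737.

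Of the 4 RNA polymerase genes, 1 rose and 3 were not called. The signal of rpoC2, a gene for the subunit that corresponds to part of the bacterial beta-prime subunit, was 1228 with control DNA and 2300 with KIN10 in experiment 1, and 343 and 521 in experiment 2. Each KIN10 array stood above its own control, yet the KIN10 signal of experiment 2 lay below the control of experiment 1, so the groups overlap. Its change was 0.87 ± 0.28 (SE, n = 2 arrays per group), a 1.83-fold rise (limma adjusted p = 0.0455), with 0.81 and 0.92 in experiments 1 and 2. The call was lost without the block (limma adjusted p = 0.882), on the values as deposited (0.0870), on the spike-in scale (0.216), with no intensity trend (0.325) and centred on the plastid photosynthesis probe sets (1). With 1 array left out it was not called either, and its change was 0.20 without control replicate 2 and 0.26 without KIN10 replicate 1, but 1.53 without control replicate 1 and 1.48 without KIN10 replicate 2.

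The rpoB gene, for the beta subunit, had signals of 494.7 (control) and 618.9 (KIN10) in experiment 1, then 126.0 and 87.0 in experiment 2. Both signals of experiment 2 lay below both of experiment 1, and KIN10 was the higher array in one experiment and the lower in the other (change 0.01 ± 0.49, SE, n = 2). For rpoA, the alpha subunit gene, the signals were 5208 (control) and 9901 (KIN10) in experiment 1, then 6921 and 4994 in experiment 2. As deposited, the KIN10 arrays held both the highest and the lowest value. After centring the control arrays did, with experiment 2 above experiment 1 by 0.92, beside -0.066 between the KIN10 arrays. The change of rpoA was 0.34 ± 0.30 (SE, n = 2). The fourth subunit gene, rpoC1, had a change of 0.46 ± 0.26, with 0.43 and 0.50 in experiments 1 and 2. Thus rpoC1 and rpoC2 were higher with KIN10 in both experiments, and rpoA and rpoB in experiment 1 only.

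None of the 8 small-subunit ribosomal protein genes was called, and their median change was 0.54, with 0.57 in experiment 1 and 0.40 in experiment 2. All 8 were higher with KIN10 in experiment 1 and 6 in experiment 2. The largest mean change was that of rps15, with signals of 666.8 (control) and 808.2 (KIN10) in experiment 1, then 205.0 and 428.4 in experiment 2. Its experiments differed in size, with changes of 0.19 and 1.38 (mean 0.78 ± 0.38, SE, n = 2, limma adjusted p = 0.209), and both KIN10 arrays lay above both controls after centring but not as deposited. With a filter at the 40th percentile of signal rps15 was called (limma adjusted p = 0.0442).

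The lowest mean change of this list was that of rps18, with signals of 1939 (control) and 3771 (KIN10) in experiment 1, then 1247 and 434 in experiment 2. It was 1.83-fold higher with KIN10 in experiment 1 and 2.31-fold lower in experiment 2, so its mean change of -0.17 ± 0.35 (SE, n = 2) describes neither. The rps4 probe set read 26442 (control) and 34981 (KIN10) in experiment 1, then 12837 and 18596 in experiment 2, higher with KIN10 each time (changes of 0.31 and 0.85). Experiments also agreed in direction for rps2 (0.39 and 0.90), rps3 (0.66 and 0.34), rps14 (0.72 and 0.46) and rps16 (0.80 and 0.16), but not for rps19 (0.48 and -0.22). As deposited, rps16 was lower with KIN10 in experiment 2, with signals of 110.1 and 98.7.

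Among the 7 large-subunit ribosomal protein genes 1 rose and 6 were not called, with a median change of 0.22. All 7 were higher with KIN10 in experiment 1 and 4 in experiment 2, where the median was 0.07. The signal of rpl16 was 7281 (control) and 16044 (KIN10) in experiment 1, then 1383 and 1726 in experiment 2. KIN10 was the higher array in both, while the experiments lay further apart than the groups, so the groups overlap. Its change was 0.84 ± 0.26 (SE, n = 2), a 1.80-fold rise (limma adjusted p = 0.0336), with 1.05 and 0.64 in experiments 1 and 2. The call was lost without the block (limma adjusted p = 0.968), on the spike-in scale (0.125), with no intensity trend (0.343) and centred on the plastid photosynthesis probe sets (1). With 1 array left out it was not called either, and its change was -0.30 without KIN10 replicate 1 and -0.098 without control replicate 2, but 1.79 without control replicate 1 and 1.99 without KIN10 replicate 2.

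The rpl33 gene had the lowest mean change of all 26, with signals of 12596 (control) and 20336 (KIN10) in experiment 1, then 6524 and 737 in experiment 2. A single array, KIN10 of experiment 2, stood far below the other 3. The gene was 1.52-fold higher with KIN10 in experiment 1 and 7.10-fold lower in experiment 2, and its mean change of -1.11 ± 0.50 (SE, n = 2) was not called (limma adjusted p = 0.168). It was called lower with the filter on signal (limma adjusted p = 0.00352). With the first KIN10 array left out its change was -3.05, also called, but on a KIN10 group of 1 array, the low one, whose spread is assumed to be like that of the controls. With the second KIN10 array left out its change was 0.82.

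The rpl32 probe set read 12374 (control) and 22034 (KIN10) in experiment 1, then 11396 and 10262 in experiment 2, a deposited order that turned between experiments (centred changes of 0.74 and 0.17). Of the remaining large-subunit genes, rpl22 (0.43 and 0.33) and rpl36 (0.36 and 0.07) were higher with KIN10 in both experiments after centring. By contrast rpl14 (0.64 and -0.67) and rpl20 (0.58 and -0.16) were higher in experiment 1 and lower in experiment 2. As deposited, rpl36 was also lower with KIN10 in experiment 2, with signals of 3863 (control) and 3261 (KIN10).

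**Figure D2:**
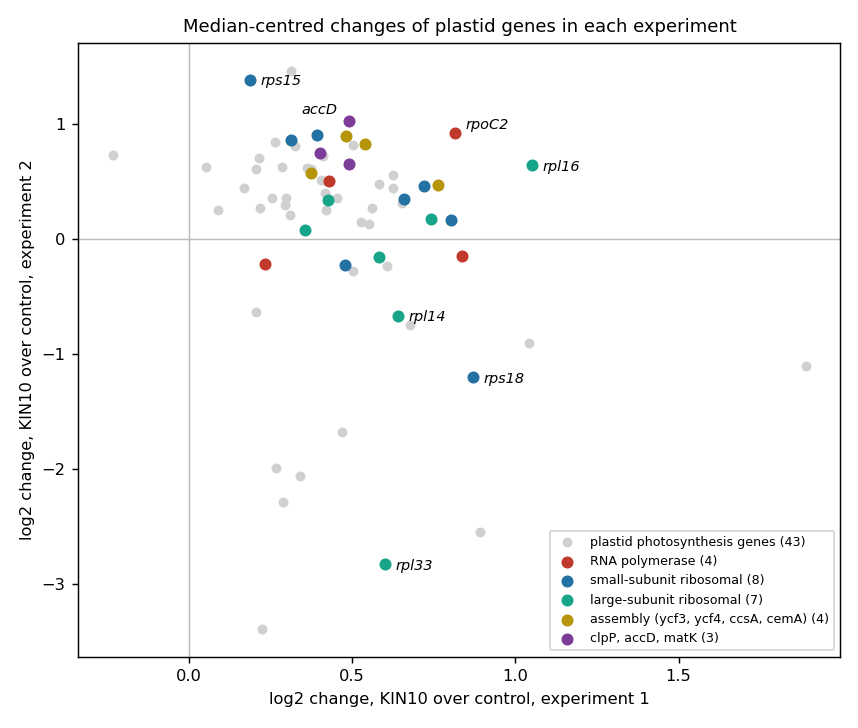
Median-centred log2 change, KIN10 over control, in experiment 1 (x axis) and experiment 2 (y axis) for the 26 genes, coloured by function, and for 43 plastid photosynthesis genes (grey). All coloured points lie right of 0 on the x axis, and 7 lie below 0 on the y axis, with rpl33 at -2.83 and rps18 at -1.20.

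The genes outside transcription and translation all had a higher signal with KIN10 in both experiments, though none of the 7 was called. The products of ycf3 and ycf4 help assemble photosystem I, ccsA is needed to attach haem to c-type cytochromes, and cemA encodes a protein of the inner envelope. In this group of 4 the median change was 0.65, with 0.51 in experiment 1 and 0.70 in experiment 2. The highest mean change was that of cemA, with signals of 20258 (control) and 30105 (KIN10) in experiment 1, then 18882 and 28073 in experiment 2. Both KIN10 arrays lay above both controls (change 0.69 ± 0.46, SE, n = 2, limma adjusted p = 0.392). The lowest was that of ccsA, with 28985 (control) and 39996 (KIN10) in experiment 1, then 28252 and 33739 in experiment 2 (change 0.47 ± 0.53, SE, n = 2). Its groups did not overlap as deposited but did after centring. The changes of ycf4 were 0.54 and 0.82, and those of ycf3 were 0.76 and 0.47.

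The last 3 genes stand alone in their functions. The accD gene encodes the plastid subunit of the acetyl-CoA carboxylase that starts fatty acid synthesis, and its signals were 6683 (control) and 9985 (KIN10) in experiment 1, then 3509 and 5700 in experiment 2. KIN10 was higher each time (changes of 0.49 and 1.02, mean 0.75 ± 0.28, SE, n = 2, limma adjusted p = 0.0854). On the values as deposited (limma adjusted p = 0.0144) and after quantile normalization (0.0234) accD was called higher. The clpP gene, for a catalytic subunit of the Clp protease, read 26385 (control) and 37114 (KIN10) in experiment 1, then 13384 and 17957 in experiment 2 (0.57 ± 0.44, SE, n = 2). The matK gene encodes a maturase that takes part in splicing of plastid introns, and read 15401 (control) and 23023 (KIN10) in experiment 1, then 6833 and 8578 in experiment 2 (0.57 ± 0.34, SE, n = 2). In all 3 genes KIN10 exceeded control within each experiment, but both signals of experiment 2 lay below both of experiment 1, so the deposited groups overlap.

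The differences between experiments were often larger than those between groups, among the members as over the whole array. The control arrays lay further apart than the size of the mean change for 15 of the 26 members, beside 58.7% of all probe sets. After centring, the control arrays were at least 2-fold apart for 9 of the 26 members (34.6%), beside 31.5% of all probe sets, and the KIN10 arrays for 13, beside 47.6%. The mean change with KIN10 reached 2-fold for rpl33 alone, beside 25.4% of all probe sets. Control array 2 lay below control array 1 for 18 members, by as much as -2.08 on the log2 scale for rpoC1, and above it by up to 2.21 for rpl36. After centring, both KIN10 arrays lay above both control arrays for 9 members (34.6%), beside 17.3% of all probe sets. These are rps2, rps3, rps4, rps15, rpl22, rpl32, accD, cemA and clpP, and include neither called gene. By the deposited signals only cemA of these kept that order. For the others the KIN10 signal of experiment 2 lay below the control of experiment 1, and for rpl32 it was the lowest signal (10262). Across the 26 members the changes of the experiments correlated with r = -0.25 (Pearson) and rho = -0.28 (Spearman), beside 0.39 and 0.43 across all probe sets. These are descriptions over genes that share the same 4 arrays.

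Genes of known transcription units did not all share a direction in experiment 2. In the rpoB operon, transcribed in the order rpoB, rpoC1, rpoC2, rps2, the changes were 0.23, 0.43, 0.81 and 0.39 in experiment 1 and -0.22, 0.50, 0.92 and 0.90 in experiment 2. The cluster related to the bacterial S10 operon had 7 members, from rps19 to rpoA. All 7 were higher with KIN10 in experiment 1 (0.36 to 1.05). In experiment 2 they ran from -0.67 (rpl14) to 0.64 (rpl16), which are neighbours on the genome. The repeat genes rpl23 and rpl2 of that cluster are not members. Their changes were 0.45 and 0.09 in experiment 1 and -0.81 and -0.24 in experiment 2. The adjacent genes rpl33 and rps18 are co-transcribed and were the only members at least 2-fold lower with KIN10 in experiment 2 (7.69%, beside 14.2% of all probe sets).

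Along the genome, some of the low values in experiment 2 stood side by side and others singly. Next to rpl33 and rps18, rpl20 had a change of -0.16, and clpP, beyond rps12, one of 0.74. On the other side psaJ had 0.27 and petG -2.55. A further run lies among photosynthesis genes after rps16 (0.16), with psbK (-2.29), psbI (-2.06), atpA (-3.39) and atpF (-1.99). It is followed by atpH (-0.64), atpI (0.51) and rps2 (0.90). In experiment 1 each of the genes just given a value was higher with KIN10, with changes from 0.20 (atpH) to 0.89 (petG). The signals behind the run include 23425 with control and 1793 with KIN10 for atpA. Other low values were psbZ (-1.68), between psbC (0.35) and rps14 (0.46), ndhF (-1.10), next to rpl32 (0.17), and the repeated gene ycf1 (-1.77). Repeated genes were placed at a single copy, so this order does not show the neighbour of ndhF on the side of the repeat. Smaller falls stood side by side at psbB (-0.28), psbT (-0.75) and psbN (-0.91). These neighbours were singled out after their values were seen. For each gene at least 2-fold lower in experiment 2, its KIN10 array was the lowest of the 4. After centring, the control of experiment 2 also lay below that of experiment 1 for atpF (-1.06), ndhF (-1.18), petG (-0.93) and atpA (-0.51). The same held for rpl33 (-0.44), psbZ (-0.29) and rps18 (-0.12). That control lay above the control of experiment 1 for psbK (0.43), psbI (0.54) and ycf1 (0.05). The ndhF signal on the second KIN10 array was 13.4, near that array's 10th percentile of 10.4. The source of the low values was not tested.

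**Figure D3:**
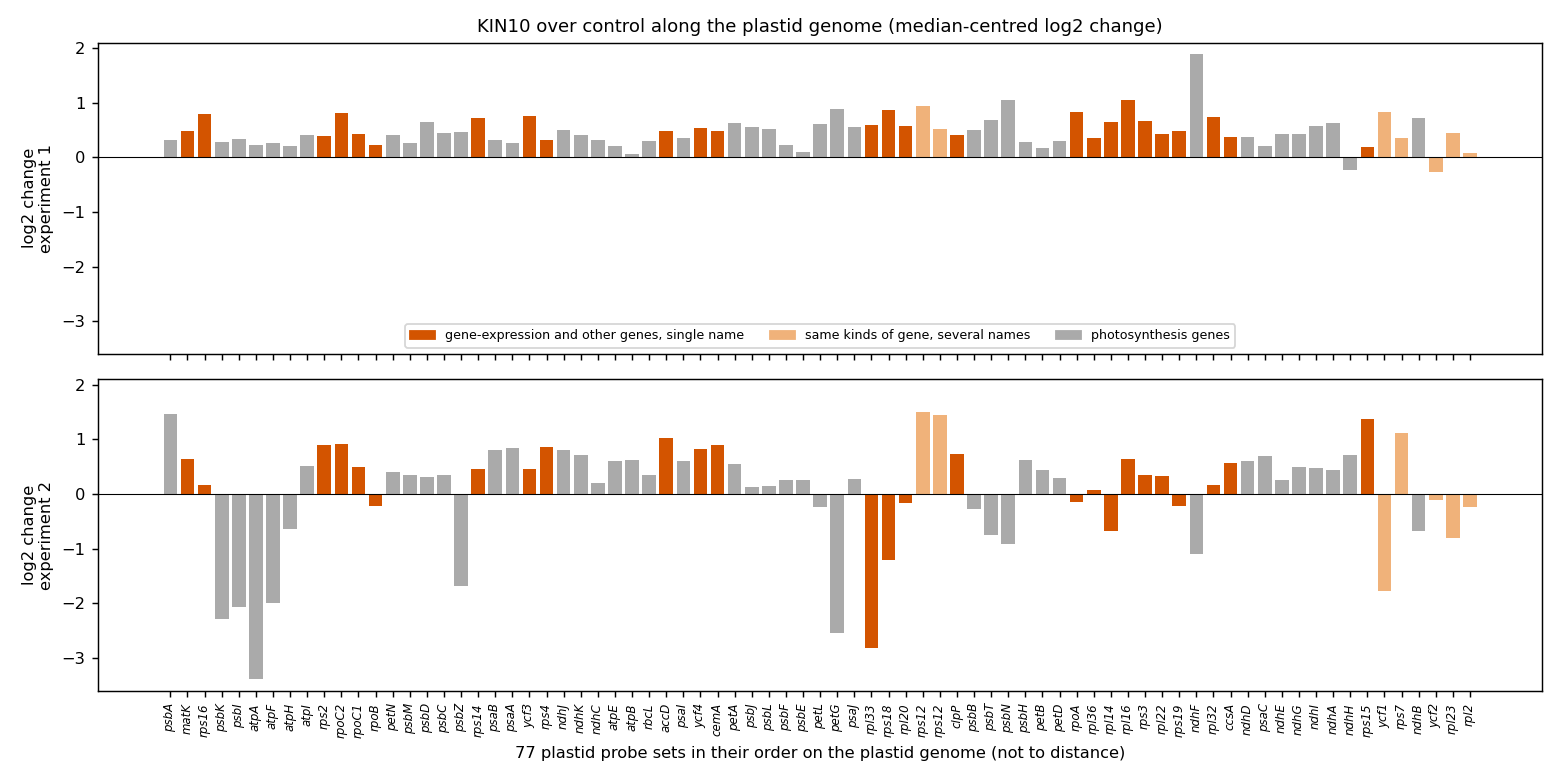
Median-centred log2 change, KIN10 over control, of the 77 plastid probe sets in gene order (bars not spaced by distance, repeated genes not shown at both copies), with experiment 1 above and experiment 2 below; dark orange marks the 26 genes described here, light orange 7 probe sets of repeated genes of the same kinds, grey the photosynthesis genes. Values in experiment 1 are nearly all positive, and in experiment 2 low bars stand side by side at psbK to atpF and at rpl33 and rps18, with others standing singly.

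The plastid photosynthesis genes and the array's spike-ins also had positive median changes. For the 43 plastid photosynthesis genes the median change was 0.37 in experiment 1 and 0.35 in experiment 2, and none was called (limma, 3 at an unadjusted p under 0.05). Of them 42 were higher with KIN10 in experiment 1 and 31 in experiment 2, and 7 (16.3%) were at least 2-fold lower in experiment 2. The difference from the 26 members was not tested. Of the 18 hybridization spike-in probe sets, 17 were higher on the KIN10 array in experiment 1 and 16 in experiment 2. On their scale the members' median change was 0.12, no member was called (limma, 3 at an unadjusted p under 0.05), and rpl20, rpl36, rpoA, rpoB and rps19 joined rpl14 (-0.39), rps18 (-0.54) and rpl33 (-1.48) in having negative changes. That scaling moved the median of all probe sets from 0.07 to -0.30.

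Members were mostly bright, with 24 of 26 above the median of all probe sets in mean log2 signal and all 26 above its 40th percentile. Among the 2275 brightest probe sets the median change was -0.08 in experiment 1 and 0.34 in experiment 2. In experiment 1 the members' median was thus above 0 and that of the bright probe sets below it, while in experiment 2 both were above 0.

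**Figure D4:**
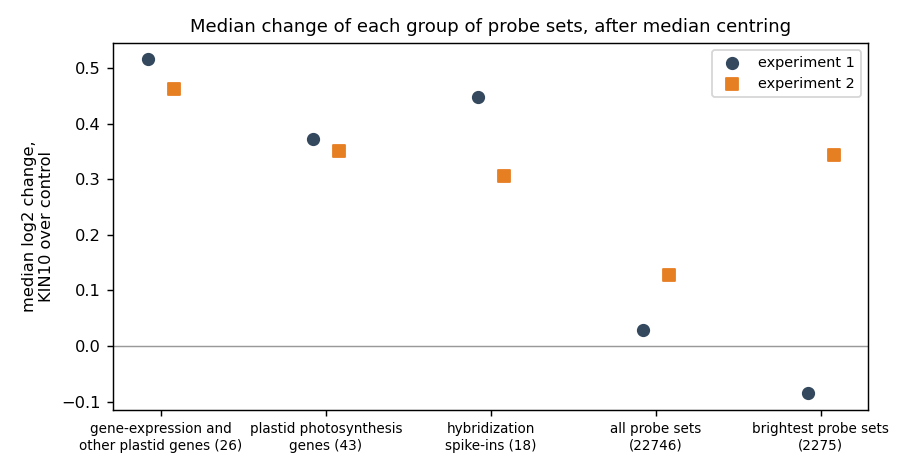
Median of the median-centred log2 changes, KIN10 over control, in experiment 1 (circles) and experiment 2 (squares) for 5 groups of probe sets, with the number of probe sets in brackets. The 26 genes lie at 0.52 and 0.46, the spike-ins at 0.45 and 0.31, and the 2275 brightest probe sets at -0.08 and 0.34.

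Genes in the inverted repeat have 2 copies, so their probe sets carry several names and are not members. The rps12 gene, whose message is spliced together from separate transcripts, has 2 such probe sets, and both were called higher. Its signals were 2879 (control) and 5852 (KIN10) in experiment 1, then 489 and 1111 in experiment 2 on one, and 10624 and 16109 and then 2005 and 4402 on the other. KIN10 exceeded its control on each, with changes of 1.22 ± 0.25 (SE, n = 2, limma adjusted p = 0.00271) and 0.98 ± 0.30 (0.0339). On both probe sets the KIN10 signal of experiment 2 lay below the control of experiment 1, so the groups overlap. These calls were not followed under the other settings. The other 5 were not called, so 2 of 7 repeat probe sets outside photosynthesis were called higher, both of the same gene. Over all probe sets 7.43% were called higher. The small-subunit gene rps7 had changes of 0.35 and 1.11 in experiments 1 and 2, rpl2 0.09 and -0.24, and rpl23 0.45 and -0.81. For ycf1 the values were 0.83 and -1.77, with a signal of 370 on the second KIN10 array against 1572 to 4096 on the others, and for ycf2 they were -0.27 and -0.10.

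The nuclear partners of these genes could be followed only in part, since 12 of 75 listed loci had a probe set with a single name. The lists were written from general knowledge of the annotation, and except for CLPP4 the tables give these loci no symbol. Of 39 nuclear loci listed for the plastid ribosome 9 were measured. AT1G64510 rose (signals of 2503 (control) and 4236 (KIN10) in experiment 1, then 3347 and 5819 in experiment 2, change 0.89 ± 0.25, SE, n = 2, limma adjusted p = 0.0236), and the other 8 were not called. Both KIN10 signals of AT1G64510 lay above both controls. Its call was not followed under the other settings, and 7.43% of all probe sets were called higher. Of these 9 loci, 7 were higher with KIN10 in experiment 1 and all 9 in experiment 2, with a median change of 0.45. CLPP4, a nuclear subunit of the protease that ClpP belongs to, had a change of 0.15 ± 0.32, and AT1G09130 of the same list 0.16 ± 0.31. AT5G15700, listed for the phage-type polymerases, had a change of -0.57 ± 0.33 (SE, n = 2) and was not called. No polymerase-associated protein (13 listed) or nuclear acetyl-CoA carboxylase subunit (4 listed) was measured.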

How the data were processed

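The deposited table holds linear signal intensity values per probe set for 4 arrays. GCOS 1.0 is the only tool the submitters' processing notes name, and its settings are not stated there. The mean intensity after trimming 2% at each end was 1500.13 to 1500.15 on every array, so the deposited intensity values share a scale. The primer used to make cDNA is not given in the sources used here. Plastid messages mostly lack stable poly(A) tails, so a primer for such tails would sample only part of them.

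Values at or below 0 (1 value) were set to the smallest positive one of the array, log2 was taken, 64 control probe sets were set apart and arrays were centred on the median of the other 22746. limma 3.58.1 in R 4.3.3 (lmFit, eBayes with trend) was fitted to all of these with the experiment as a block, which leaves 1 residual degree of freedom; the estimated prior had 15.5. The design text describes pairs of transfections, and arrays of the same number deviated together (Pearson r of 0.495 across probe sets). Tested on simulated data of this size, the fit recovered fewer of the known changes the more probe sets differed in spread, and in most runs its share of false calls exceeded the nominal level. The known changes were larger than those of rpoC2 and rpl16 and were set in fewer probe sets than were called here. Recovery of changes as small as those of the members was therefore not tested. Having 2 arrays in each group limits the precision. No filter on signal was used, unlike in an earlier analysis, because centring and test then cover the same probe sets.

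Names came from the platform annotation through Entrez numbers in RefSeq TAIR10.1 (13513 probe sets with a single name, 503 with several, 8730 with none in the table). Signals were described for called members and, per function, for those with the highest and lowest change and highest signal; other genes by their changes. The members and lists were chosen with earlier results of these data known.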

Additional observations from a re-analysis of the deposited data

How the results depend on the processing

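The count of members called higher was 2 and depended on the fit. It was 0 without the replicate block, on the spike-in scale, centred on the plastid photosynthesis probe sets and with no intensity trend, 5 on the values as deposited (accD, cemA, rpl16, rps2 and ycf4) and 4 after quantile normalization. No member was called lower, except 1 (rpl33) with the filter at the 40th percentile of signal. In fits that left out 1 array, made with no block, the higher count was 0 throughout and the lower count 0 to 1. The median change of 0.49 was 0.38 as deposited, 0.12 on the spike-in scale, 0.35 after quantile normalization and 0.62 centred on photosynthesis probe sets, and ran from 0.22 to 0.77 with 1 array left out. Signs of small changes turned as deposited (rpoB -0.11), on the spike-in scale (rpl20 -0.16, rpl36 -0.16, rpoA -0.029, rpoB -0.36, rps19 -0.25), after quantile normalization (rpl14 0.079) and centred on photosynthesis probe sets (rpl14 0.11). With 1 array left out, changes spanned 0 for rpl14 (-0.71 to 0.68), rpl16 (-0.30 to 1.99), rpl20 (-0.90 to 1.32), rpl33 (-3.05 to 0.82), rpl36 (-0.89 to 1.32), rpoA (-0.12 to 0.80), rpoB (-0.95 to 0.96), rpoC1 (-0.58 to 1.50), rps14 (-0.22 to 1.40), rps16 (-0.28 to 1.24), rps18 (-1.27 to 0.93), rps19 (-0.59 to 0.85) and ycf3 (-0.20 to 1.43), and for rpoC2 they ran from 0.20 to 1.53. The causes were not tested. Over all probe sets, calls were 1690 higher and 1702 lower, but 47 and 2 without the block and 0 and 0 in limma with no intensity trend (3732 at an unadjusted p under 0.05). Of the 18 results for rpoC2 and rpl16 under other settings with all arrays, 9 lost the call.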
